A study of Mus musculus with 4 samples.

Results

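Translation initiation factors and the kinases that act on them were followed in DS19, a line of mouse erythroleukemia (MEL) cells that grew from transformed red cell precursors, with and without Wdr26. The set holds every gene of the deposited table whose symbol begins with Eif and a digit from 1 to 6, which came to 54 of 17393 genes. It takes in the initiation factors proper, the eIF2 kinases, the eIF4E-binding repressors and a few genes that carry the name without acting in initiation. The choice used the symbols and no measured value.

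The study compared 2 libraries from Wdr26 knockout cells (Wdr26-/-) with 2 libraries from wild-type cells, numbered 1 and 2 in each genotype. Wdr26 encodes a subunit of the CTLH E3 ubiquitin ligase. All 4 libraries came from the same line and were made after removal of ribosomal RNA, and the culture description names 1.5% dimethyl sulfoxide, which drives these cells toward a red cell-like state, without saying whether the sequenced cells had received it. Age does not apply to a cell line, and the Y-linked gene Eif2s3y, described below, was expressed in every library. The sources used here do not say whether the knockout cells are 1 clone. Separate cultures are nowhere named for the libraries of a genotype, so a p-value covers spread between the samples at hand, which could be technical. In RNA from whole cultures, fewer cells of a kind and less RNA per cell cannot be told apart.

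Initiation begins when eIF2, loaded with GTP and the initiator tRNA, joins the small ribosomal subunit together with eIF1, eIF1A, eIF3 and eIF5. The cap-binding complex eIF4F, made of eIF4E, the scaffold eIF4G and the helicase eIF4A, brings the mRNA, and eIF2B reloads eIF2 with GTP after each round. Phosphorylation of eIF2 by a stress-activated kinase blocks eIF2B and lowers translation in general. In red cell precursors the kinase encoded by Eif2ak1, known as HRI, is held inactive by heme and matches globin synthesis to the heme supply. The eIF4E-binding proteins hold eIF4E away from eIF4G until mTORC1 phosphorylates them. None of these switches acts through mRNA level alone, and mRNA level is what was measured here.

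Levels are in FPKM, that is, fragments per kilobase of transcript and per fixed number of fragments sequenced, and changes are differences of log2(FPKM + 1), knockout minus wild type. The steps in the lowest values corresponded to about 19800000 to 21200000 fragments per library with 40 bases of length lost at transcript ends, the loss that gave the best match, and to 25000000 to 26800000 with a loss of 200 bases. Wdr26 itself stood at 9 and 7.84 FPKM in knockout libraries 1 and 2, against 55.4 and 52.4 FPKM in wild-type libraries 1 and 2, so the labels match the targeted gene (log2 change −2.55, SE 0.14, limma with Benjamini-Hochberg adjusted p = 0.0063). With either wild-type library left out it missed the threshold (adjusted p = 0.0682 without library 1 and 0.0549 without library 2). The labels give an erythroid identity, and all 12 erythroid markers examined were expressed above the filter described below, among them Gata1 at 525 and 451 FPKM in knockout and 462 and 489 FPKM in wild type. Of the other cell types examined, the megakaryocyte gene Itga2b was also abundant, at 240 and 235 FPKM in knockout and 215 and 232 FPKM in wild type. Summed over the listed genes in the table, lymphoid markers reached no more than 0.55 FPKM in a library and fibroblast markers no more than 0.61 FPKM, and the T-cell gene Cd3e was listed at 0 in every library. Myeloid markers summed to 7.65 and 12.6 FPKM in knockout and to 3.86 and 4.13 FPKM in wild type, with the protease gene Prtn3 at 6.84 and 12.17 FPKM in knockout and 2.88 and 3.59 FPKM in wild type, while Elane was listed at 0 throughout.

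The promoters of the set show what its genes share in sequence, and the stretches around 1 shared motif are given here because its members include factors described later for their levels. Promoter windows in the RefSeq table (GRCm38.p6, the mm10 build), each running from 250 bases before to 50 bases from an annotated start, were found for 43 of the 54 genes, 56 windows in all. The letters CACGTG, the E-box that Myc and related factors bind and which reads the same on both strands, occurred in 21.4% of these windows, in 10.5% of the windows of all genes tested and in 7.15% of all windows. The letters CCGGAAG or their reverse CTTCCGG, an ETS-type site, occurred in 33.9%, against 19.6% of windows of all genes tested and 8.86% of all windows. The erythroid GATA letters AGATAA or TTATCT occurred in 1.79% of the set's windows, that of Eif3c alone, against 6.17% of windows of all genes tested and 11.2% of all windows. These matches are descriptions of letters, not of bound sites. The E-box members were Eif1b, Eif3a, Eif3f, Eif3k, Eif4a1, Eif4e, Eif4g1, Eif4h, Eif5a and Eif5a2, and 7 stretches with 20 bases on each side are printed below, with the E-box in capitals.
Eif1b, chr9:120492562-120492607, plus strand: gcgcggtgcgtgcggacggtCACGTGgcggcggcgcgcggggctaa
Eif3f, chr7:108934327-108934372, plus strand: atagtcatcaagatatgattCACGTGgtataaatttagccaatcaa
Eif3k, chr7:28981907-28981952, minus strand: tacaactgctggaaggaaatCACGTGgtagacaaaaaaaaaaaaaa
Eif4a1, chr11:69672587-69672632, minus strand: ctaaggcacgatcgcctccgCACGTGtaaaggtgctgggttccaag
Eif4e, chr3:138527184-138527229, plus strand: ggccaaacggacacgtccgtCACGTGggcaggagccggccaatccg
Eif4g1, chr16:20672653-20672698, plus strand: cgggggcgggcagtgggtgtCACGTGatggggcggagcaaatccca
Eif5a, chr11:69921435-69921480, minus strand: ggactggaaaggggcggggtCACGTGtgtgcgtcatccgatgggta

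The initiation machinery was abundant in these cells. Over the 4 libraries the median of the gene means was 46.8 FPKM for the 54 genes, against 11.6 FPKM for all genes tested. In all, 47 of the 54 averaged at least 10 FPKM and 14 at least 100 FPKM. A gene was tested where 2 or more libraries reached 1 FPKM. That left out Eif4e1b, an oocyte form of the cap-binding protein, listed at 0 in both knockout libraries and at 0 and 0.03 FPKM in wild type, and Eif4ebp3, at 0.58 and 0.2 FPKM in knockout and 0.81 and 0.44 FPKM in wild type. The other 52 genes were tested, and each of them reached 1 FPKM in all 4 libraries, so none entered through 1 genotype alone.

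**Figure D1:**
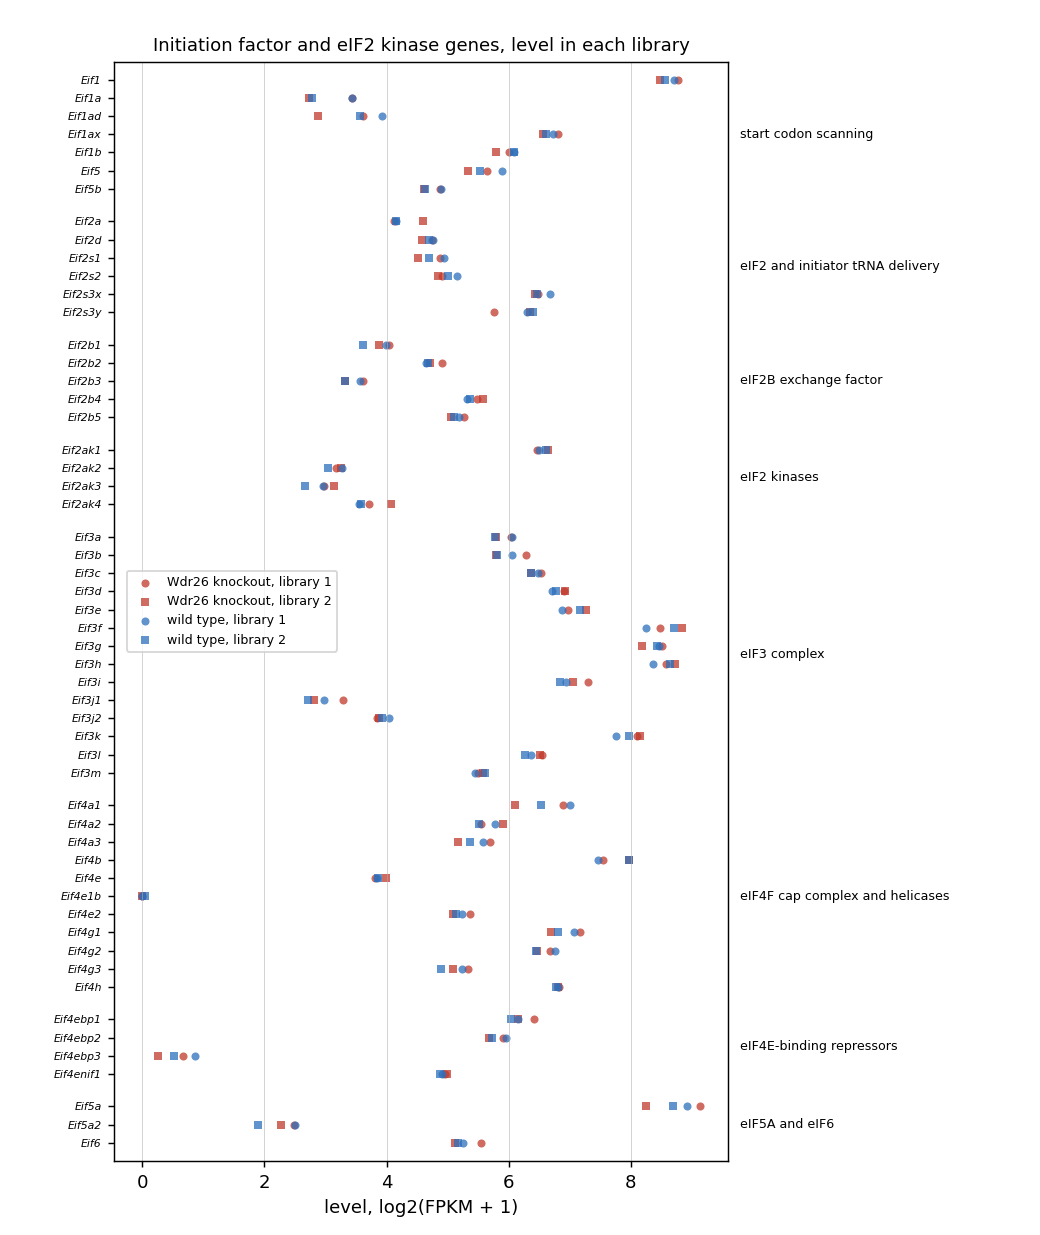
Level of each of the 54 genes on the log2(FPKM + 1) scale, grouped by role, with red symbols for Wdr26 knockout and blue symbols for wild type, circles for library 1 and squares for library 2. The 4 symbols of a gene lie close together compared with the distances between genes, from Eif4e1b near 0 to Eif5a at the right.

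No gene of the set passed the test between knockout and wild type. By limma, with p adjusted over all 10670 genes tested and a threshold of 0.05, the count past the test was 0 of 52, where 0.0937% of all genes passed, 0.0469% higher and 0.0469% lower in knockout cells. With no adjustment and a p under 0.05 the count was also 0, against 11.4% of all genes, and without the mean-variance trend it was 0 as well. The smallest unadjusted p in the set was 0.094 and the smallest adjusted p 0.543. Every log2 change in the set lay between −0.49 and 0.32, and 41 of the 52 were under 0.2 in size. The median change was 0.030, beside 0.067 over all genes tested. With the values of each library centred on their median, the set's median was −0.047, so its sign depends on the scaling. The 95% interval of the change stayed within a log2 change of 1 either way for 51 of the 52 genes, the exception being Eif1ad, and the median interval ran 0.39 to each side. A test of this kind recovered 0.4% of genes changed 1.5-fold and 32.4% of genes changed 2-fold in simulated data. The simulation dealt the spreads of all genes out at random and did not treat this set apart. A small change in the set could thus have been missed, but how often is not known.

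The libraries of the 2 genotypes did not overlap for 13 genes. Both knockout libraries lay above both wild-type libraries for 10 of the 52 genes, 19.2%, against 29.9% of all genes tested, and below both for 3 genes, 5.77%, against 10.8% of all genes tested. The balance turned with the scaling. With median-centred values 3 genes were higher and 8 lower, where 19.9% and 20.1% of all genes were. Eif3i, Eif3l and Eif4ebp1 stood higher, and Eif1b, Eif2s2 and Eif3j2 lower, both with and without centring. With globin genes left out Eif4ebp1 no longer kept its genotypes apart, while the other genes just named did. Lower only after centring were Eif1ad, Eif2d, Eif2s3x, Eif3g and Eif5. Of these, Eif1ad, Eif2d and Eif2s3x were also lower in both knockout libraries with quantile normalization and with globin genes left out.

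**Figure D2:**
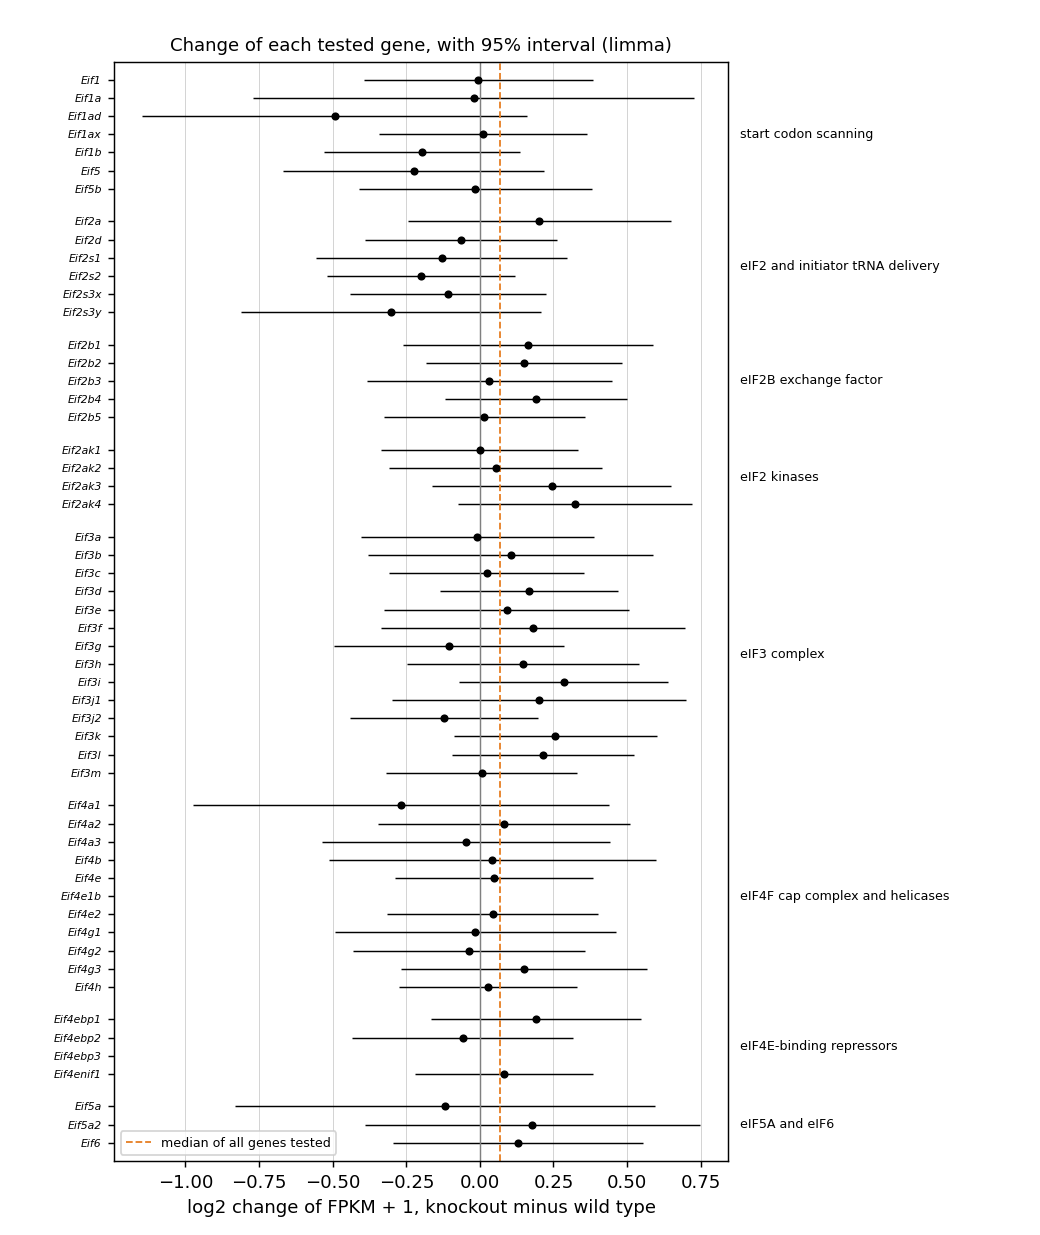
Change of each tested gene on the log2(FPKM + 1) scale, knockout minus wild type, with its 95% interval from limma, grouped by role. All 52 intervals include 0, and the dashed line marks the median change of all genes tested, 0.067. Eif4e1b and Eif4ebp3 have no point because they were not tested.

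The eIF2 kinases phosphorylate the alpha subunit of eIF2 and differ in the stress that activates them. Eif2ak1 (gene ID 15467, chromosome 5, 143817792 to 143902717, mm10), which encodes the heme-regulated kinase, stood at 87.7 and 98.6 FPKM in knockout libraries 1 and 2, against 88.96 and 97.25 FPKM in wild-type libraries 1 and 2. Its genotypes overlapped almost completely, with means of 93.1 ± 7.72 FPKM in knockout and 93.1 ± 5.86 FPKM in wild type (SD, n = 2 each). The log2 change was −0.00049 with a 95% interval from −0.33 to 0.33 (limma adjusted p = 1.00). Exons of Eif2ak1 overlap those of Aimp2 and Ankrd61 on the opposite strand in the GENCODE M21 annotation, and the sources used here do not say whether counting used strand, so part of its value could come from those genes.

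Eif2ak1 made up most of the kinase mRNA. It accounted for 76.4% and 75.4% of the summed FPKM of the 4 kinases in knockout, against 77.3% and 80.4% in wild type. Eif2ak4, which encodes GCN2, the sensor of uncharged tRNA, was the next most abundant. It stood at 12.2 and 15.8 FPKM in knockout, against 10.75 and 11.03 FPKM in wild type. Both knockout libraries were above both wild-type libraries, and knockout library 2 was the highest, but the gene did not pass (log2 change 0.32, SE 0.16, limma adjusted p = 0.543). Without knockout library 2 its change was 0.15.

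The remaining kinases were lower still and close to each other. Eif2ak3, which encodes PERK, the kinase of the endoplasmic reticulum, stood at 6.89 and 7.8 FPKM in knockout, against 6.81 and 5.34 FPKM in wild type. Its genotypes were barely apart, with knockout library 1 just above wild-type library 1, and the gene did not pass (log2 change 0.24, limma adjusted p = 0.675). Eif2ak2, which encodes PKR, the sensor of double-stranded RNA, stood at 7.99 and 8.53 FPKM in knockout, against 8.62 and 7.27 FPKM in wild type. These ranges overlap, and the log2 change was 0.053 (limma adjusted p = 0.94). In every library the order was Eif2ak1, Eif2ak4, Eif2ak2 and Eif2ak3, and the last 2 were close together in each.

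Of eIF2 itself, the beta subunit gene Eif2s2 stood at 29.1 and 27.8 FPKM in knockout, against 34.5 and 31.2 FPKM in wild type. Both knockout libraries were below both wild-type libraries, but the gene did not pass (log2 change −0.20, SE 0.13, limma adjusted p = 0.658). The alpha subunit gene Eif2s1, whose product the kinases phosphorylate, averaged 25.0 ± 4.61 FPKM in knockout and 27.3 ± 3.28 FPKM in wild type (SD, n = 2 each), and its libraries overlapped between genotypes. The gamma subunit has an X-linked and a Y-linked gene in mouse, and both were expressed. Eif2s3x averaged 87.1 ± 2.32 FPKM in knockout and 94.1 ± 9.36 FPKM in wild type. Eif2s3y stood at 53.1 and 80.2 FPKM in knockout, against 78.1 and 83.4 FPKM in wild type, so that knockout library 1 was apart from the other 3 libraries. The Y-linked copy therefore made up 37.4% and 48.4% of the gamma subunit mRNA in knockout, against 43.7% and 48.8% in wild type. Of the 50-base windows of the Eif2s3x transcript, 36.2% also occur in Gm2223, so these shares are uncertain. Of the factors that deliver initiator tRNA by other routes, Eif2d overlapped between genotypes on the deposited scale, though not with median-centred values. Eif2a stood at 16.5 and 23.2 FPKM in knockout, against 16.9 and 16.8 FPKM in wild type, with knockout library 2 alone set apart.

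The 5 subunits of eIF2B, the exchange factor that the phosphorylated eIF2 blocks, changed little. Their log2 changes ran from 0.015 (Eif2b5) to 0.19 (Eif2b4), with a median of 0.15, and none passed. Eif2b4 stood at 43.5 and 46.8 FPKM in knockout, against 38.7 and 40.2 FPKM in wild type. Eif2b2 stood at 29.1 and 25.2 FPKM in knockout, against 24.1 and 24.7 FPKM in wild type. Both of these were higher in both knockout libraries, as 29.9% of all genes tested were, whereas Eif2b1, Eif2b3 and Eif2b5 overlapped. With median-centred values or quantile normalization no eIF2B gene kept its genotypes apart, but Eif2b2 and Eif2b4 did with globin genes left out. The subunits were not equal in level, with Eif2b4 and Eif2b5 at 32.1 to 46.8 FPKM over the 4 libraries and Eif2b1 and Eif2b3 at 8.93 to 15.5 FPKM. Eif2b4 has an exon that overlaps Snx17 on the opposite strand.

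The factors of start codon scanning showed no call either. Eif1, whose product keeps the scanning ribosome from starting at a wrong codon, was among the most abundant genes of the set, at 434 and 357 FPKM in knockout, against 415 and 376 FPKM in wild type. Both genotypes averaged 395 FPKM, with an SD of 54.6 FPKM in knockout and 27.8 FPKM in wild type (n = 2 each). Its close relative Eif1b was lower in both knockout libraries, at 62.9 and 54.1 FPKM, against 66.7 and 67.3 FPKM in wild type, without passing (log2 change −0.20, limma adjusted p = 0.683). Eif5, which makes eIF2 hydrolyse its GTP, averaged 44.2 ± 6.87 FPKM in knockout and 51.9 ± 9.15 FPKM in wild type, and Eif5b, which joins the ribosomal subunits, 25.9 ± 3.31 and 26.2 ± 3.61 FPKM in knockout and wild type (SD, n = 2 each).

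Eif1ad had the largest fitted change of the set in either direction. The gene (gene ID 69860, chromosome 19, 5366813 to 5371518) encodes a nuclear protein with an eIF1A-like domain and stood at 11.3 and 6.35 FPKM in knockout, against 14.1 and 10.8 FPKM in wild type. Knockout library 1 lay above wild-type library 2, so the genotypes overlapped on the deposited scale. With median-centred values, quantile normalization or globin genes left out, both knockout libraries were below both wild-type libraries. The libraries numbered 2 were the lower ones in both genotypes. Its log2 change of −0.49 (SE 0.27) did not pass (limma adjusted p = 0.584). Without knockout library 1 the log2 change was −0.86 (limma adjusted p = 0.00229), and without knockout library 2 it was −0.12. Such a fit leaves 1 knockout library, which is assumed to vary as the 2 wild-type libraries do, and it put 720 genes past the threshold without knockout library 1 and 314 without knockout library 2, against 10 with all libraries. The gene overlaps exons of Banf1 on the opposite strand.

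eIF3, the largest initiation factor, holds the small subunit open for mRNA and links it to eIF4G, and its 14 genes made up 43.3% and 48.0% of the summed FPKM of the set in knockout, against 40.9% and 45.4% in wild type. Their median log2 change was 0.13, beside 0.067 over all genes tested, and none passed the test. In both knockout libraries 4 genes were higher (Eif3d, Eif3i, Eif3k and Eif3l) and 1 was lower (Eif3j2). Of all genes tested, 29.9% were higher and 10.8% lower in both. With median-centred values only Eif3i and Eif3l stayed higher, and Eif3g and Eif3j2 were lower. With quantile normalization, and with globin genes left out, Eif3d, Eif3i, Eif3k and Eif3l were all higher and only Eif3j2 was lower. Eif3i (gene ID 54709, chromosome 4, 129591974 to 129600648) stood at 157 and 132 FPKM in knockout, against 121 and 114 FPKM in wild type. Its log2 change was 0.28 (SE 0.15, limma adjusted p = 0.547). Eif3k stood at 272 and 282 FPKM in knockout, against 216 and 249 FPKM in wild type, with a log2 change of 0.26 (limma adjusted p = 0.586). Eif3l stood at 92.4 and 89.9 FPKM in knockout, against 81.3 and 75.6 FPKM in wild type, a log2 change of 0.22 (limma adjusted p = 0.613).

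The subunits of eIF3 differed far more among themselves than between genotypes. The most abundant subunit gene exceeded the least abundant 43.4-fold and 75.9-fold in knockout, against 51.5-fold and 75.1-fold in wild type. Eif3f, Eif3g and Eif3h stood at the top, between 289 and 456 FPKM over the 4 libraries. Eif3j1 stood at the bottom, at 8.73 and 6.01 FPKM in knockout, against 6.85 and 5.57 FPKM in wild type. Eif3j1 and Eif3j2 encode the loosely bound subunit j, and 90.8% of the 50-base windows of the Eif3j2 transcript also occur in Eif3j1, so the division of reads between them is uncertain. Of the core subunits a, b and c, on which the complex is built, Eif3a averaged 59.3 ± 7.23 FPKM in knockout and 59.8 ± 8.41 FPKM in wild type, Eif3b 65.8 ± 15.8 FPKM in knockout and 60.5 ± 7.39 FPKM in wild type, and Eif3c 86.3 ± 6.85 FPKM in knockout and 84.9 ± 5.28 FPKM in wild type (SD, n = 2 each). All 3 overlapped between genotypes.

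In the cap-binding group none of the 10 tested genes kept the genotypes apart. Among all genes tested, both knockout values lay above both wild-type values for 29.9% and below them for 10.8%. Eif4e, the cap-binding protein itself, was the least abundant of the 10 tested genes of the group. It stood at 13 and 14.9 FPKM in knockout, against 13.3 and 13.5 FPKM in wild type. The scaffold gene Eif4g1 stood at 142 and 103 FPKM in knockout, against 134 and 111 FPKM in wild type. Its relatives Eif4g2 and Eif4g3, and the eIF4A cofactor gene Eif4h, likewise overlapped between genotypes, and Eif4h stayed between 108 and 113 FPKM, a coefficient of variation of 1.63%. Eif4a3, whose product sits in the exon junction complex and not in eIF4F, averaged 42.76 ± 10.96 FPKM in knockout and 43.6 ± 4.68 FPKM in wild type (SD, n = 2 each).

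The helicase gene Eif4a1 was lower in library 2 of both genotypes, whereas Eif4a2 was higher in library 2 in knockout and lower in wild type. Eif4a1 (gene ID 13681, chromosome 11, 69666936 to 69672423) stood at 117 and 67.6 FPKM in knockout, against 127 and 90.8 FPKM in wild type. The genotypes overlapped, and knockout library 2 was the lowest. The log2 change was −0.27 (SE 0.29, limma adjusted p = 0.823), and it was −0.66 without knockout library 1 (limma adjusted p = 0.0195) and 0.12 without knockout library 2, with the spread again taken from wild type alone. In Eif4a1, 65.3% of 50-base windows also occur in other genes, almost all of them in the pseudogene Eif4a-ps4, which makes its value uncertain. Eif4a2, the paralog, stood at 45.7 and 58.9 FPKM in knockout, against 53.6 and 44.6 FPKM in wild type. The FPKM ratio of Eif4a1 to Eif4a2 was thus 2.56 and 1.148 in knockout, against 2.37 and 2.03 in wild type, with knockout library 2 apart from the other 3.

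Among the repressors of eIF4E, Eif4ebp1, the main mTORC1-controlled binding protein, stood at 84.5 and 70.4 FPKM in knockout, against 69.99 and 64.92 FPKM in wild type. It was higher in both knockout libraries by a narrow margin and did not pass (log2 change 0.19, SE 0.15, limma adjusted p = 0.72). With globin genes left out its genotypes overlapped. Eif4ebp2 stood at 58.8 and 50.1 FPKM in knockout, against 61.4 and 52.1 FPKM in wild type, and overlapped. The FPKM ratio of Eif4ebp1 to Eif4ebp2 was 1.44 and 1.41 in knockout, against 1.14 and 1.25 in wild type. Together the 2 repressor mRNAs exceeded that of Eif4e 11.02-fold and 8.09-fold in knockout, against 9.89-fold and 8.64-fold in wild type, and this ratio overlapped between genotypes. Eif4enif1, which encodes the eIF4E transporter of the nucleus and of P-bodies, was among the steadiest genes, at 30.2 and 30.7 FPKM in knockout, against 29.1 and 28.3 FPKM in wild type (log2 change 0.082, limma adjusted p = 0.885).

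Eif5a, which carries the modified amino acid hypusine and acts mainly in elongation and termination, was the most abundant gene of the set by its mean. It stood at 561 and 304 FPKM in knockout, against 485.7 and 413 FPKM in wild type. The knockout libraries lay on both sides of the wild-type libraries, and the log2 change was −0.12 (SE 0.29, limma adjusted p = 0.931). Eif5a2, its low-level paralog, stood at 4.57 and 3.83 FPKM in knockout, against 4.66 and 2.71 FPKM in wild type. Eif6, which keeps the ribosomal subunits apart, averaged 39.7 ± 8.43 FPKM in knockout and 35.9 ± 1.44 FPKM in wild type (SD, n = 2 each), and overlapped.

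On the deposited scale the number of the library went with larger differences in this set than the genotype did. The mean difference between library 2 and library 1 was larger in size than the change between genotypes for 38 of the 52 genes, 73.1%, against 52.7% of all genes tested. In both genotypes library 2 was below library 1 for 32 genes, 61.5%, where 46.5% of all genes were. Library 2 was above library 1 in both for 12 genes, 23.1%, where 24.0% of all genes were, and the other 8 differed between genotypes. The median difference, library 2 minus library 1 on the log2(FPKM + 1) scale, was −0.20 in knockout and −0.11 in wild type, beside −0.040 and −0.095 over all genes tested. With each gene's difference averaged over the genotypes, the set's median was −0.147. It was −0.065 with median-centred values and −0.065 with quantile normalization, so its size depends on the scaling. The counts above were not taken on centred values. Over the 52 genes the SD of the log2 difference was 0.18 between knockout and wild-type libraries numbered 1 and 0.22 between those numbered 2. It was 0.32 between the knockout libraries and 0.23 between the wild-type libraries. The differences in knockout and in wild type had a Pearson correlation of 0.664 across the 52 genes and of 0.606 across all 10670 genes, which share their libraries and are not independent. The sources used here do not say what the library number stands for, so these are descriptions without a test.

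**Figure D3:**
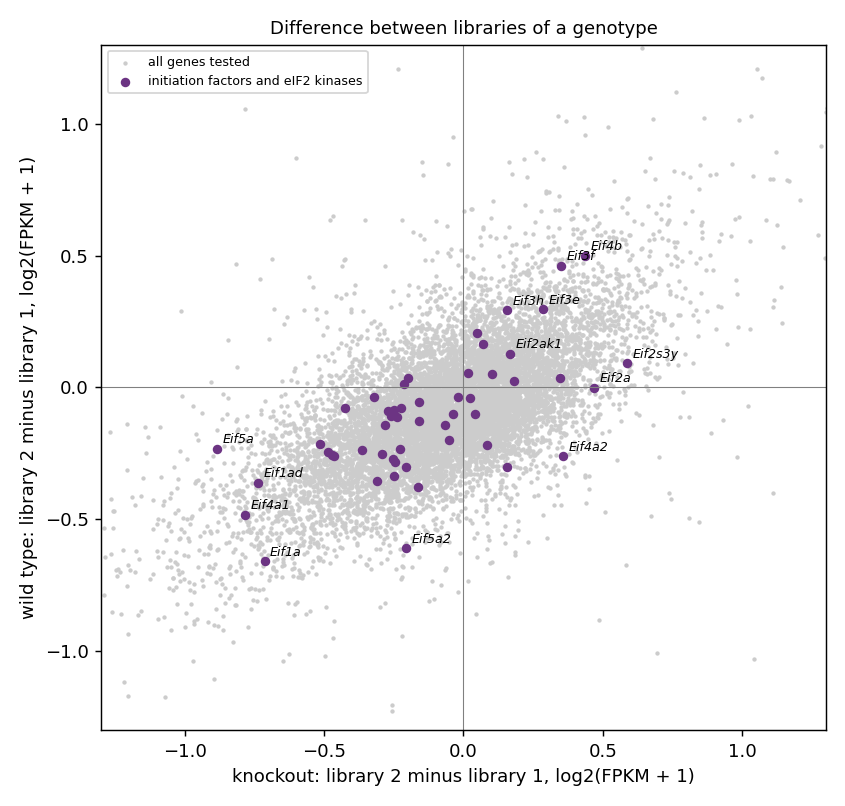
Difference between library 2 and library 1 on the log2(FPKM + 1) scale, in knockout on the horizontal axis and in wild type on the vertical axis, with all genes tested in grey and the 52 initiation factor and eIF2 kinase genes in purple. Most purple points lie at lower left, Eif4b, Eif3f, Eif3e and Eif3h lie at upper right, and 74 genes fall outside the axes.

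The genes with the largest shared difference were Eif1a, Eif4a1, Eif5a and Eif1ad, all lower in library 2. Eif1a, which encodes the scanning factor eIF1A, stood at 5.62 FPKM in knockout library 2 and 5.85 FPKM in wild-type library 2, against 9.86 FPKM in knockout library 1 and 9.81 FPKM in wild-type library 1. The libraries of a number were close together whatever their genotype. The X-linked copy Eif1ax was far more abundant, at 93.3 and 96.9 FPKM in library 2 of knockout and wild type and 110 and 105 FPKM in library 1 of knockout and wild type, with a log2 difference of −0.24 in knockout and −0.11 in wild type. In Eif4a1 the level in library 2 was 0.577 times that in library 1 in knockout and 0.714 times in wild type, and in Eif5a it was 0.541 times in knockout and 0.851 times in wild type.

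The 12 genes higher in library 2 of both genotypes were Eif2ak1, Eif2ak4, Eif2b4, Eif2s3y, Eif3d, Eif3e, Eif3f, Eif3h, Eif3k, Eif3m, Eif4b and Eif4e. Of these, 4 abundant ones are given in full, chosen after their values were seen, and Eif2s3y, described above, had a larger mean log2 difference (0.34) than Eif3e (0.29) or Eif3h (0.22). Eif4b (gene ID 75705, chromosome 15, 102073773 to 102097173), which encodes the cofactor that stimulates the eIF4A helicase, stood at 251 FPKM in knockout library 2 and 249 FPKM in wild-type library 2, against 185 FPKM in knockout library 1 and 176 FPKM in wild-type library 1. Eif3f (gene ID 66085, chromosome 7, 108934415 to 108941942) stood at 456 and 418 FPKM in knockout and wild-type libraries 2, against 357 and 303 FPKM in knockout and wild-type libraries 1. Eif3h stood at 422 and 400 FPKM in the libraries numbered 2, against 379 and 326 FPKM in those numbered 1, and Eif3e at 152 and 143 FPKM, against 124 and 116 FPKM, with knockout before wild type in each pair. An unbroken run of at least 7 C or T bases within 10 bases of the annotated start occurred in 25% of the promoter windows of the set, against 20% of windows of all genes tested.

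**Figure D4:**
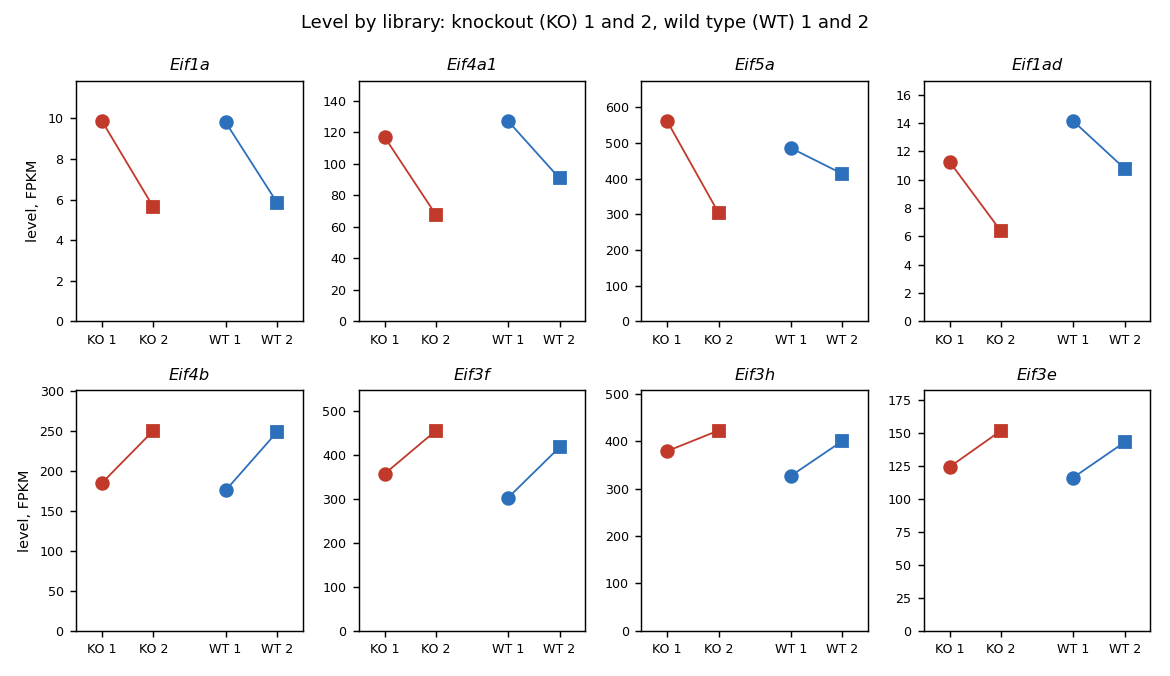
Level in FPKM of 8 genes in knockout libraries 1 and 2 (red) and wild-type libraries 1 and 2 (blue), each axis starting at 0. The upper row shows the 4 genes with the largest shared difference, all lower in library 2 of both genotypes, and the lower row 4 of the 12 genes that were higher in library 2 of both genotypes.

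Of the 10 E-box members, 6 were lower in library 2 in both genotypes, among them Eif4a1, Eif5a and Eif4g1, 3 were higher in both (Eif3f, Eif3k and Eif4e) and 1 differed between genotypes, beside 61.5% lower and 23.1% higher in the whole set. Between knockout and wild type their log2 changes ran from −0.27 to 0.26 with a median of 0.0094. Of the 12 erythroid markers, 8 were lower and 1 was higher in both knockout libraries, where 10.8% and 29.9% of all genes tested were. None of the markers passed the test. Slc4a1, which encodes band 3, stood at 48.6 and 6.70 FPKM in knockout, against 436 and 285 FPKM in wild type (limma adjusted p = 0.166). Whether the state of the cells has a part in the values of the initiation factors was not tested.

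The wider pathway around the set was examined through 4 lists, and no gene in them passed the test over all genes with all 4 libraries. Among 16 tested targets of the integrated stress response, the program set off when eIF2 is phosphorylated, 0 passed in limma, 3 had an unadjusted p under 0.05, 5 were higher in both knockout libraries and 1 was lower in both, where 11.4%, 29.9% and 10.8% of all genes tested did the same. Sesn2, which encodes an inhibitor of mTORC1 that p53 also controls, stood at 31.9 and 34.1 FPKM in knockout, against 17.1 and 17.3 FPKM in wild type. Its knockout libraries were close to each other and well above the wild-type libraries, and it came nearest to the threshold (log2 change 0.90, SE 0.13, limma adjusted p = 0.101). Its adjusted p depended on which library was left out. It was 0.00014 and 0.00201 without library 1 or library 2 of the knockout, where the spread comes from the wild-type libraries alone, and 0.619 without library 1 and 0.503 without library 2 of wild type. Nupr1, a stress-induced chromatin protein gene, stood at 135 and 104 FPKM in knockout, against 74.05 and 53.04 FPKM in wild type (log2 change 0.91, SE 0.21, limma adjusted p = 0.23). Its adjusted p was 0.00706 and 1.73e-05 without library 1 or library 2 of the knockout, with the same limit, and 0.552 without library 1 and 0.816 without library 2 of wild type, while its log2 change stayed between 0.67 and 1.15.

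Atf4, Ddit3 and Ppp1r15a, which are central to that program, overlapped between genotypes, while some other targets did not. Atf4, whose translation rises when eIF2 is phosphorylated, stood at 99.9 and 78.5 FPKM in knockout, against 99.3 and 85.8 FPKM in wild type. Ddit3, which encodes CHOP, averaged 55.1 ± 7.45 FPKM in knockout and 57.9 ± 11.4 FPKM in wild type, and Ppp1r15a, which encodes the eIF2 phosphatase subunit GADD34, 109 ± 8.22 FPKM in knockout and 108 ± 6.02 FPKM in wild type (SD, n = 2 each). Besides Sesn2 and Nupr1, the targets higher in both knockout libraries were Psat1, Chac1 and Cebpb, and Ppp1r15b was lower in both. Psat1, which also had an unadjusted p under 0.05, stood at 91.6 and 61.9 FPKM in knockout, against 56.8 and 43.9 FPKM in wild type. It did not pass (log2 change 0.58, limma adjusted p = 0.409). The median log2 change of the 16 targets was 0.072, beside 0.067 over all genes tested.

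In the list of mTORC1 and MNK signalling, with 15 tested genes, 0 passed in limma. An unadjusted p under 0.05 was found for 1 gene, where 11.4% of all genes tested had one. That gene was Pdcd4, which encodes an inhibitor of the eIF4A helicase. It stood at 61.4 and 71.7 FPKM in knockout, against 51.7 and 52 FPKM in wild type (log2 change 0.35, limma adjusted p = 0.418). Tsc2, a brake on mTORC1, averaged 26.3 ± 4.37 FPKM in knockout and 20.7 ± 4.24 FPKM in wild type (SD, n = 2 each), and its libraries overlapped between genotypes. Among 18 tested genes for initiation factors under other names, 0 passed and 1 had an unadjusted p under 0.05, beside the same 11.4%. That gene was Bzw2, which encodes an eIF5 mimic protein, at 15.6 and 17.0 FPKM in knockout, against 24.95 and 22.12 FPKM in wild type (log2 change −0.50, SE 0.14, limma adjusted p = 0.28). Cyfip1, which encodes an eIF4E-binding partner of FMRP, averaged 10.3 ± 0.382 FPKM in knockout and 8.22 ± 0.453 FPKM in wild type without passing.

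Elongation and termination factors gave 0 calls among 15 tested genes and 0 unadjusted p under 0.05, against 11.4% of all genes tested. In both knockout libraries 5 were higher and 1 lower, beside 29.9% and 10.8% of all genes tested. Eef2, the translocation factor, stood at 1805.9 and 2129.8 FPKM in knockout, against 1309 and 1713 FPKM in wild type (log2 change 0.39, limma adjusted p = 0.553). Eef1b2, which reloads the elongation factor eEF1A with GTP, averaged 209.7 ± 0.453 FPKM in knockout and 173 ± 11.5 FPKM in wild type (SD, n = 2 each, log2 change 0.27, limma adjusted p = 0.523). Of the 15 genes, 4 were higher and 8 lower in library 2 of both genotypes, where 24.0% and 46.5% of all genes tested were.

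Sequence shared with other genes limits some of these values. Over 20% of 50-base windows occurred in another gene for 11 of the 54 genes. These were Eif3j2, Eif4ebp3, Eif4a1, Eif3j1, Eif3m, Eif2s3x, Eif1, Eif2s2 (27.8%), Eif3h (26.2%), Eif4a3 (24.4%) and Eif3e (22%). Exons of 14 genes overlap an exon of another gene on the opposite strand, and the rows of 14 genes include transcripts assembled from the reads.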

How the data were processed

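Libraries from 4 RNA samples were made by Illumina protocols after ribosomal RNA removal, per the labels' protocols. The authors deposited 1 value per gene and library, identified as FPKM from the deposited numbers, which multiplied by transcript length summed to between 1.02e+09 and 1.04e+09 per library. TopHat2 and mm10 are named in the submitters' processing notes, and no source used here names the program behind the values. Values were analysed as log2(FPKM + 1) for 10670 genes that reached 1 FPKM in 2 or more libraries, with limma 3.58.1 in R 4.3.3 (eBayes with a mean-variance trend, no covariates) and Benjamini-Hochberg adjustment over all of them. The pseudocount understates changes of low genes. An exact permutation test of 2 against 2 cannot go below 0.333 and was not run. The members and lists were chosen with earlier results of these data known. Genes were named by a rule: Wdr26, all kinase, eIF2B and eIF4E-binding genes, the 6 smallest p, the most and least abundant gene of each other role, the 4 largest shared library differences, and 2 per context list. Other genes named were chosen after their values were seen. The fit was tested on simulated data (200 changed genes in each of 5 runs, changed genes above 5 FPKM in wild type). The simulated noise was independent between libraries, with the spreads within genotypes reassigned at random among genes. Coordinates came from RefSeq GRCm38.p6, which matched 16316 gene IDs, and shared sequence and exon overlaps from GENCODE M21. Alternatives covered scaling, filter, pseudocount, trend, library number and left-out libraries.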

Additional observations from a re-analysis of the deposited data

How the results depend on the processing

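The count of 0 initiation factor genes past the threshold held in every alternative except 2. With the library number as a replicate block 3 passed (Eif1ad, Eif2ak4 and Eif2s3y, with 8 at an unadjusted p under 0.05), where each gene is left 1 residual degree of freedom, and the counts with single libraries left out ran from 0 to 2. With the block 5 of the context genes named by the rule given above passed as well, Sesn2 (adjusted p = 3.69e-09), Nupr1 (8.06e-10), Bzw2 (0.000711), Pdcd4 (0.0126) and Tsc2 (0.0231). The labels do not say that a number marks a shared culture or day, and same-numbered libraries deviated together across genes (r = 0.606), a hint from the data only. Over all genes 10 passed, against 21 with 11 globin genes left out, 0 without the filter on low values, 2 with a mean of at least 5 FPKM, 1863 with the replicate block, and 0 to 720 with single libraries left out. Initiation factor genes higher in both knockout libraries numbered 10 (19.2%, against 29.9% of all genes tested), but 3 with median-centred values (5.77% against 19.9%). They numbered 5 with quantile normalization and 7 without globin genes. Those lower in both numbered 3 (5.77% against 10.8%), but 8 with median-centred values (15.4% against 20.1%). With quantile normalization they numbered 7, and without globin genes also 7. The share over all genes was not taken with quantile normalization or without globin genes. The median change of the set ran from −0.046 to 0.112 with single libraries left out.

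Small changes that turned sign were, with median-centred values, Eif2ak2 (−0.023), Eif2b3 (−0.044), Eif2b5 (−0.062), Eif4b (−0.034) and Eif4e (−0.028). With quantile normalization they were Eif2ak2 (−0.031), Eif2b3 (−0.054), Eif2b5 (−0.058), Eif1 (0.058) and Eif4e (−0.045), and without globin genes Eif2b3 (−0.020), Eif2b5 (−0.041), Eif4b (−0.015) and Eif4e (−0.0048). With single libraries left out the changes ran from −0.084 to 0.083 for Eif2ak1, −0.056 to 0.163 for Eif2ak2, −0.026 to 0.353 for Eif2b1, −0.114 to 0.18 for Eif2b3, −0.097 to 0.127 for Eif2b5, −0.175 to 0.058 for Eif4ebp2, −0.146 to 0.136 for Eif1, −0.378 to 0.336 for Eif1a, −0.031 to 0.437 for Eif2a, −0.051 to 0.412 for Eif3f, −0.035 to 0.438 for Eif3j1, −0.207 to 0.293 for Eif4b, −0.042 to 0.141 for Eif4e, −0.56 to 0.323 for Eif5a, −0.126 to 0.483 for Eif5a2 and −0.661 to 0.122 for Eif4a1. None of these genes passed in the fit over all 4 libraries. Wdr26 lost its call without the filter (adjusted p = 0.0675), and when wild-type library 1 (0.0682) or library 2 (0.0549) was left out. The cause of these shifts was not tested. FPKM values carry no counts, so no counting interval was computed, and 2 libraries per genotype limit what could be called.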
